A study of Homo sapiens with 12 samples.

Results

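Nucleolar ribosome biogenesis factors are the proteins that modify, cleave and fold pre-rRNA in the nucleolus and assemble it with ribosomal proteins. The set named here held 58 genes, chosen by function with earlier results of these data known. Of these, 55 were listed among the 6777 genes tested. UTP15, PNO1 and GAR1 were not analysed here. By role the 55 comprised 3 core proteins of the box C/D small nucleolar ribonucleoproteins (snoRNPs), 3 of 4 core proteins of the box H/ACA snoRNPs, 6 abundant nucleolar or chaperone proteins, 21 of 23 factors of the small subunit and 22 factors of the large subunit.

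RNA polymerase I makes a long precursor that holds the small subunit rRNA and most of the large subunit rRNA. Box C/D particles guide methylation of the ribose and box H/ACA particles guide the change of uridine to pseudouridine. The small subunit processome forms on the 5′ part of the precursor, and pre-large-subunit particles form on the remainder. Cells that grow and divide quickly, many cancer lines among them, make these factors at high levels, and their genes are textbook targets of the transcription factor MYC, which binds the E-box CACGTG.

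The cells were MDA-MB-231, a long-established line of human breast cancer without hormone receptors or HER2 amplification (triple-negative). They were given 10 nM AZD0095 for 4 h, which inhibits MCT4, the transporter encoded by SLC16A3 through which cells release lactate, or DMSO, its solvent. RNA-seq and ribosome profiling, which sequences the mRNA fragments that ribosomes protect from nuclease (footprints), were each run on 3 DMSO and 3 AZD0095 libraries, 12 in all. The series asks how a build-up of lactate inside cells affects transcription and translation; lactate itself was not among the values analysed here.

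The unit of every value is FPKM, the number of fragments scaled to the length of the gene and to the mapped reads of the library. The lowest value of any listed gene was 1.002 FPKM, so genes below about 1 FPKM in any library are absent from the comparison. How deeply the RNA libraries were sequenced is unknown. The footprint libraries held an implied 107087 to 192324 reads in DMSO and 141122 to 501351 in AZD0095. Libraries of a group correlated across the 55 factors at 0.981 to 0.998 for RNA and at 0.895 to 0.946 for footprints. The 6 markers of a mesenchymal-like line (VIM, CD44, S100A4, CAV1, AXL and MSN) were all listed, VIM at 2522 ± 25.9 FPKM of RNA in DMSO (SD, n = 3). Of 7 luminal, receptor and epithelial markers only ERBB2 and EPCAM were listed, at 16.8 ± 1.57 and 10.1 ± 0.70 FPKM.

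The promoters of many of the factors carry the E-box letters close to an annotated start of transcription. The stretches below show this for members with different RNA changes, from those that fell to those that lay slightly higher. RefSeq promoter windows of GRCh38.p14, from 250 bases before to 50 after an annotated start, were at hand for 48 of the 55 factors (54 windows) and for 5655 of the genes tested (8291 windows). Each stretch is 30 bases long, 5′ to 3′ on the strand of the gene, with CACGTG in capitals. WDR43 and BYSL were called lower in RNA. FBL and NOP10 lay slightly higher without passing the test. UTP4 had a log2 fold change of -0.01, and GNL3, DDX21 and NOP14 lay lower without passing the test.
WDR43, chr2:28894658-28894687, plus strand: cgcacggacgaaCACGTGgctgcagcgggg
BYSL, chr6:41921515-41921544, plus strand: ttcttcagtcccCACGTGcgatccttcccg
FBL, chr19:39846356-39846385, minus strand: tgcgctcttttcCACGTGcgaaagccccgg
NOP10, chr15:34343130-34343159, minus strand: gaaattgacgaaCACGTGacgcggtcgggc
UTP4, chr16:69132621-69132650, plus strand: agagcgcgcgcgCACGTGgggccggggcgg
GNL3, chr3:52686026-52686055, plus strand: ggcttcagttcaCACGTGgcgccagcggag
DDX21, chr10:68956604-68956633, plus strand: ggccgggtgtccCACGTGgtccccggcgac
NOP14, chr4:2963374-2963403, minus strand: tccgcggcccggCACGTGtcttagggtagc

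CACGTG, which reads the same on both strands, was found in 38.9% of the factors' windows against 10.3% of all windows. Counted by gene, 20 of 48 factors (41.7%) had it in at least 1 window, against 14% of all genes with a window. Within 50 bases of the start it stood in 31.5% of the factors' windows and in 4.23% of all windows. In WDR43, FBL, GNL3, NOP14 and BYSL the E-box began 3, 6, 6, 15 and 28 bases after the annotated start of the window. In UTP4, NOP10 and DDX21 it began 16, 11 and 31 bases before that start. In BYSL, DDX21 and GNL3 the start of the window lay inside the RefSeq gene span rather than at its end. These shares were not tested against each other.

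The median RNA log2 fold change was -0.17 in the 20 factors with CACGTG and -0.17 in those without, a difference that was not tested. Of the 6 factors called lower that had a window, 3 carried it (WDR43, BYSL and UTP14A). Among 6 other motifs read on both strands, CCGGAAG, the core of sites for ETS factors, stood in 44.4% of the factors' windows and 19.3% of all windows. The median RNA log2 fold change of the factors with and without it was -0.10 and -0.17, also not tested. The shorter CGGAAG, which lies within it, stood in 64.8% against 33.2%. The GC box GGCGGG stood in 64.8% and 68.9%, CGCATGCG in 9.26% and 3.93%, and the variant E-box CATGTG in 5.56% and 6.91%. Counted by gene, GGCGGG stood in 68.8% of factors and 79.8% of all genes with a window, and CCGGAAG in 50% and 25.9%. The shares by gene were 68.8% and 43.1% for CGGAAG, 10.4% and 5.38% for CGCATGCG, and 6.25% and 9.09% for CATGTG. TGATGCAA was found in 0 of the factors' windows and in 0.543% of all windows. Longer motifs that were searched earlier are not reported here.

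In DMSO the factors spanned a wide range of RNA levels, with a median of 45.3 FPKM against 23.3 over all genes tested. NPM1 and NCL stood far above the others. NPM1, the histone-binding and rRNA-binding chaperone nucleophosmin, held 1519, 1329 and 1259 FPKM in DMSO replicates 1 to 3. NCL, nucleolin, an RNA-binding protein of pre-rRNA, held 480, 408 and 388 FPKM. The values of NPM1 are uncertain, because the gene has many near-identical pseudogenes and how shared reads were assigned is not given in the sources used here.

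Next came FBL and NOP56. FBL, the methyltransferase of the box C/D particles, held 232 ± 0.42 FPKM (SD, n = 3) and NOP56, its scaffold partner, 206.9 ± 9.25. The H/ACA proteins NHP2, DKC1 (the pseudouridine synthase) and NOP10 held 133 ± 6.52, 109 ± 9.55 and 87.4 ± 0.65 FPKM. NOP58, the other box C/D scaffold protein, was lower at 42.6 ± 6.89 FPKM. The lowest RNA levels belonged to large subunit factors, RRP15 at 7.44 ± 0.55, WDR12 at 8.68 ± 0.58 and the GTPase GNL3L at 9.66 ± 0.67 FPKM. The highest RRP15 library (8.03 FPKM) lay just below the lowest of WDR12 (8.09), and WDR12 and GNL3L overlapped, while NPM1 and NCL were separated from each other and from all the rest. Median levels of the small and large subunit factors were alike, 40.1 and 39.8 FPKM.

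**Figure D1:**
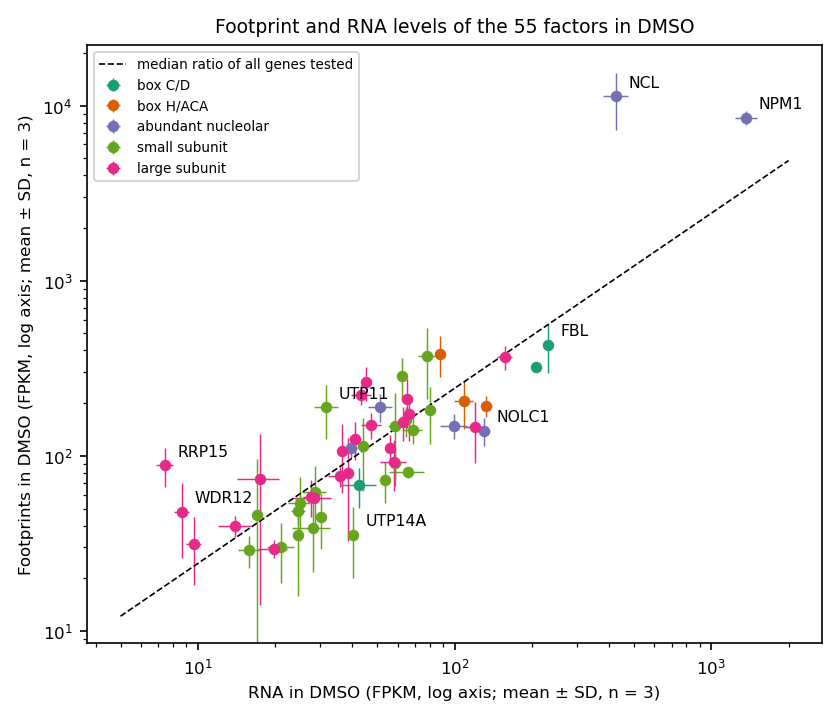
Footprint level against RNA level of the 55 factors in DMSO, both in FPKM on log axes, with points for the mean and bars for the SD of 3 libraries; colours mark the role and the dashed line is the median ratio of all genes tested (2.43). NCL and NPM1 lie far above the other factors on both axes, RRP15 and WDR12 lie above the line at low RNA, and UTP14A lies below it. The lower bar of RRP12, whose SD exceeds its mean, runs off the axis.

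The median footprint to RNA ratio of the factors was 2.18 in DMSO, against 2.43 for all genes tested. NCL had the highest ratio, 26.7, and the 3 libraries gave 20.2 to 37.7, which put it above 99.4% of all genes. RRP15, a component of the pre-large-subunit particle, followed at 11.9 (8.66 to 14.3) and NPM1 at 6.22 (5.58 to 6.69). The footprints of RRP15 rest on 7, 10 and 16 reads in DMSO. The range of NPM1 overlapped those of other factors, UTP11 (3.94 to 8.05) and MRTO4 (4.60 to 7.16) among them. At the other end stood UTP14A, a small subunit processome protein, at 0.88 (0.47 to 1.23), NOLC1, a chaperone of snoRNPs, at 1.07 (0.84 to 1.22) and GNL3, the GTPase nucleostemin, at 1.22 (0.90 to 1.76). The 3 lowest overlapped one another, and NCL overlapped none of the other 54. The ratio compares 2 kinds of library made by different protocols, so its absolute size has no meaning beyond the order of genes.

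With AZD0095 the RNA of most factors shifted down by a small amount. The log2 fold change was negative for 49 of 55 factors, against 47.7% of all genes tested, and its median was -0.17 against 0.01. By limma with Benjamini-Hochberg adjustment over all 6777 genes, 7 factors fell, where 3.01% of all genes were called lower, and 0 rose, where 5.03% of all genes were called higher. At an unadjusted p under 0.05, 20 factors were lower (10% of all genes) and 0 higher (14.1%). In 15 factors all 3 AZD0095 libraries lay below all 3 DMSO libraries (11.5% of all genes), and in 4, namely FBL, NOP10, WDR46 and LAS1L, they lay above (17.7%). FPKM are relative values from bulk cultures, so fewer cells with these RNAs, less of them per cell and more of other RNA cannot be told apart.

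**Figure D2:**
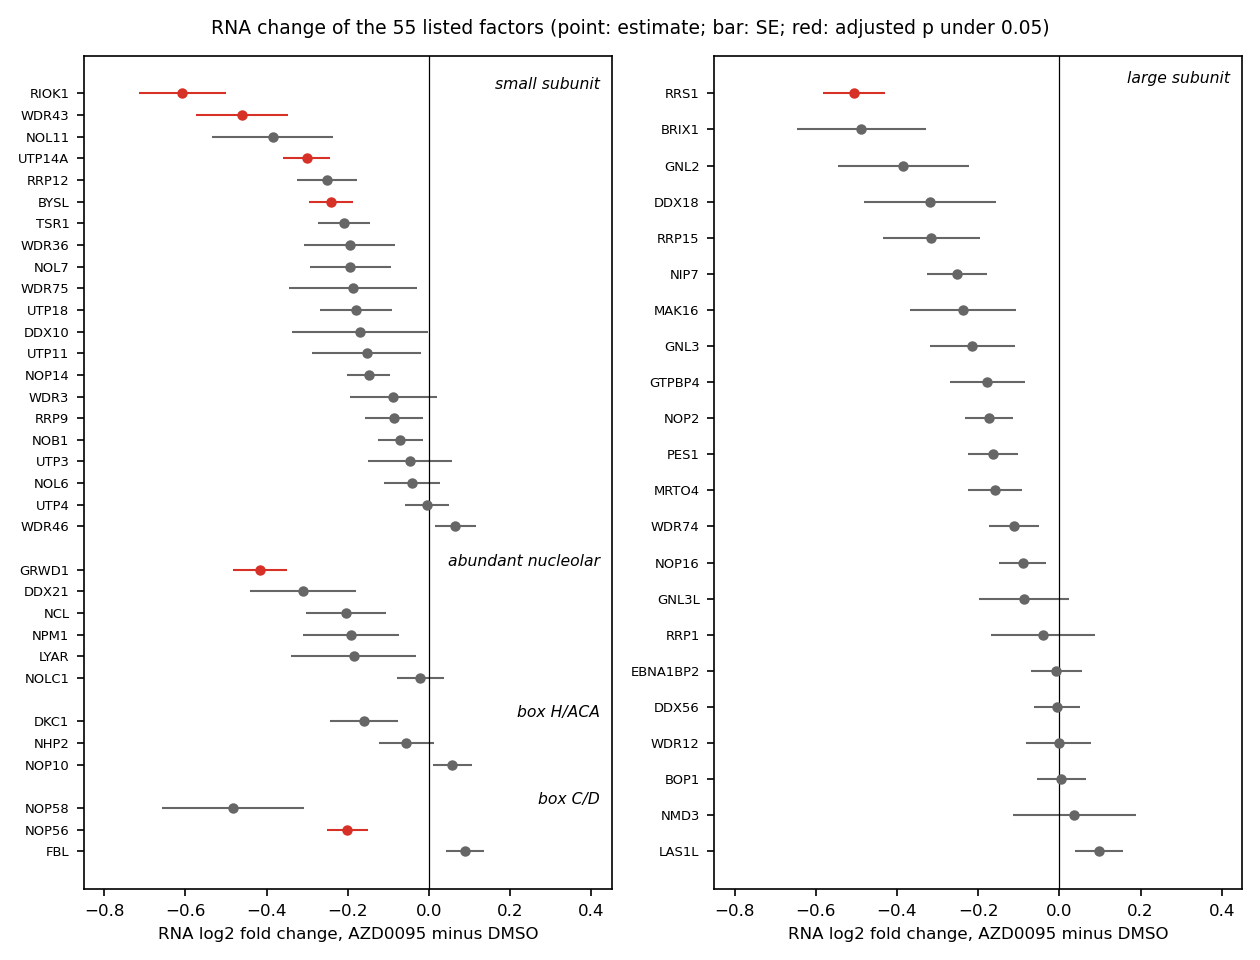
RNA log2 fold change (AZD0095 minus DMSO, on the log2(FPKM + 1) scale) of each of the 55 factors by role, with points for the estimate and bars for its SE from limma; red marks the 7 factors with an adjusted p under 0.05. Of the 55 points 49 lie left of 0, the lowest being RIOK1 at -0.61 and the highest LAS1L at 0.10.

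Among the small subunit factors 20 of 21 log2 fold changes were negative, with a median of -0.18, and 4 of the 21 fell. RIOK1, an atypical kinase that acts late on the small subunit precursor (chr6:7389808-7418037, GRCh38.p14), held 32.1, 27.3 and 26.2 FPKM of RNA in DMSO and 21.0, 17.3 and 16.8 in AZD0095. Every AZD0095 library lay below every DMSO library. Its RNA log2 fold change was -0.61 ± 0.11 (SE), with a limma adjusted p of 0.014, and the mean level fell by 35.5%.

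WDR43, a subunit of the complex that binds pre-rRNA first and that is also needed for its transcription (chr2:28894667-28948219), held 75.01, 67.8 and 63.7 FPKM in DMSO and 59.7, 44.2 and 46.4 in AZD0095. The groups did not overlap, although AZD0095 replicate 1 lay close to the DMSO libraries. Its RNA log2 fold change was -0.46 ± 0.11 (limma adjusted p = 0.045). UTP14A (chrX:129906164-129929752), whose yeast counterpart activates the helicase that frees U3 snoRNA from the precursor, held 39.9, 41.6 and 38.8 FPKM in DMSO and 33.1, 32.4 and 31.5 in AZD0095. The spread within each group was small beside the gap between them. Its RNA log2 fold change was -0.30 ± 0.06 (limma adjusted p = 0.02), and reads shared with its retrocopy UTP14C cannot be told apart here. BYSL, bystin, which stays with the small subunit precursor until late in its maturation (chr6:41908759-41933046), held 63.1, 61.8 and 61.7 FPKM in DMSO and 50.1, 53.4 and 54.2 in AZD0095. The groups were again apart, and the RNA log2 fold change was -0.24 ± 0.05 (limma adjusted p = 0.033).

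The remaining 17 small subunit factors did not pass the test. Of them NOP14, NOB1, TSR1 and RRP12 had AZD0095 values wholly below the DMSO values, with RNA log2 fold changes of -0.15, -0.07, -0.21 and -0.25. NOL11, which works in the same early complex as WDR43, had -0.39 ± 0.15 with overlapping groups (limma adjusted p = 0.16). UTP4, a further subunit of that complex, had -0.01 ± 0.05 and WDR75 -0.19 ± 0.16, so the complex was not uniform in its values. The 1 positive value was that of WDR46, at 53.2, 53.1 and 55.04 FPKM in DMSO and 57.0, 55.7 and 56.3 in AZD0095, a log2 fold change of 0.07 ± 0.05 (limma adjusted p = 0.48).

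Among the large subunit factors 19 of 22 log2 fold changes were negative, with a median of -0.16, and 1 fell. RRS1, which helps to bring the 5S rRNA particle into the large subunit precursor, held 26.9, 29.5 and 26.2 FPKM of RNA in DMSO and 19.2, 17.8 and 20.3 in AZD0095. The groups were far apart, with an RNA log2 fold change of -0.51 ± 0.08 (limma adjusted p = 0.0087). BRIX1, an assembly factor of the same particle, had -0.49 ± 0.16, nearly as low, but its libraries spread widely. It held 65.4, 56.2 and 52.4 FPKM in DMSO and 53.6, 37.8 and 33.7 in AZD0095, so the groups overlapped (limma adjusted p = 0.11). The AZD0095 libraries also lay wholly below DMSO for PES1, MRTO4, NIP7 and NOP2, at log2 fold changes of -0.16, -0.16, -0.25 and -0.17, none past the test.

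PES1, BOP1 and WDR12 form a complex that is needed for processing of the large subunit rRNA, and none of the 3 passed the test in RNA. PES1 had a log2 fold change of -0.16 ± 0.06, BOP1 0.01 ± 0.06 and WDR12 -0.002 ± 0.08. LAS1L, part of the complex that cuts the second internal spacer, had the highest value of all 55. It held 35.5, 37.5 and 36.8 FPKM in DMSO and 37.6, 39.5 and 40.6 in AZD0095, a log2 fold change of 0.10 ± 0.06 that did not pass the test (limma adjusted p = 0.36).

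Among the 3 box C/D proteins, NOP56 fell and FBL did not. NOP56 (chr20:2652632-2658393) held 216, 207 and 198 FPKM of RNA in DMSO and 185, 178 and 177 in AZD0095. The groups were apart, with an RNA log2 fold change of -0.20 ± 0.05 (limma adjusted p = 0.046). FBL lay slightly higher, at 232, 231 and 232 FPKM in DMSO and 236, 251 and 254 in AZD0095, a log2 fold change of 0.09 ± 0.05 that missed the threshold (limma adjusted p = 0.29). NOP58 had -0.48 ± 0.18 with overlapping groups (limma adjusted p = 0.14). Whether the change of NOP56 differs from that of FBL was not tested. Of the H/ACA proteins 0 of 3 passed, with values from -0.16 for DKC1 to 0.06 for NOP10.

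All 6 abundant nucleolar and chaperone proteins had negative RNA log2 fold changes, with a median of -0.20, and GRWD1 fell. GRWD1, a chaperone of a ribosomal protein of the large subunit (chr19:48445983-48457022), held 36.7, 41.2 and 40.3 FPKM in DMSO and 29.7, 28.0 and 29.99 in AZD0095. The groups were far apart, with a log2 fold change of -0.42 ± 0.07 (limma adjusted p = 0.01). The helicase DDX21 had -0.31 ± 0.13, NCL -0.21 ± 0.10, NPM1 -0.19 ± 0.12, the zinc finger protein LYAR -0.19 ± 0.15 and NOLC1 -0.02 ± 0.06, all with overlapping groups.

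**Figure D3:**
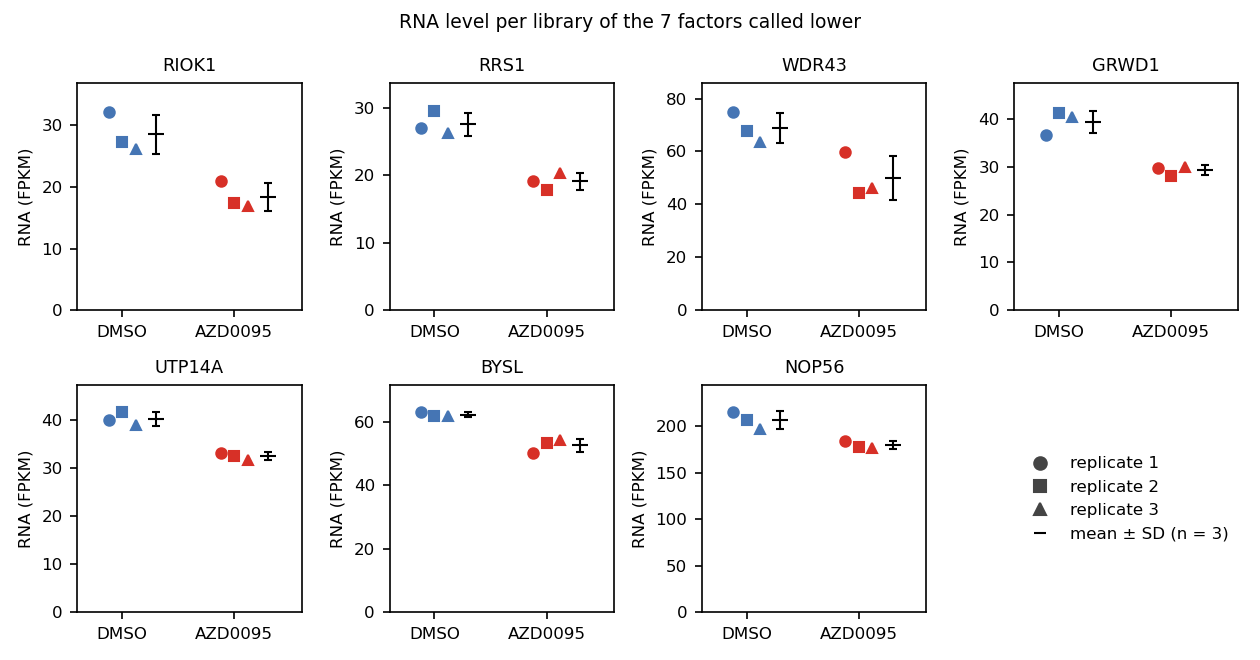
RNA level in FPKM per library (circle, square and triangle for replicates 1, 2 and 3) of the 7 factors called lower, with the mean and SD of 3 libraries beside the points; all axes start at 0. In each of the 7 panels the 3 AZD0095 libraries lie below the 3 DMSO libraries.

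The factors also moved together between libraries of the same treatment, and replicate 1 stood apart in both groups. Of the 55 factors 38 had their highest DMSO value in replicate 1 (69.1%, against 46.4% of all genes), and 38 had their highest AZD0095 value in replicate 1 (47.2% of all genes). Relative to the DMSO mean, the factors' median RNA log2 value was 0.09, -0.02 and -0.08 in DMSO replicates 1 to 3 and -0.02, -0.21 and -0.26 in AZD0095 replicates 1 to 3. AZD0095 replicate 1 thus lay between the second and the third DMSO library. Together the 55 factors made up 1.17%, 1.04% and 1.01% of the summed RNA FPKM in DMSO and 1.07%, 0.916% and 0.871% in AZD0095, so the groups overlapped by that 1 library. The labels do not say what the replicate 1 libraries share.

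**Figure D4:**
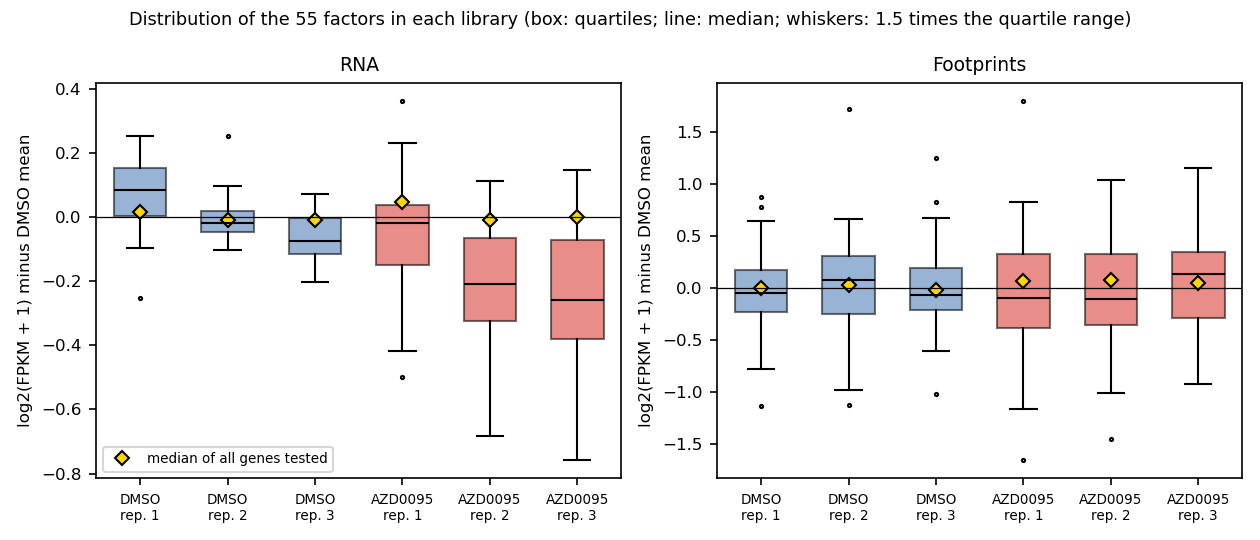
Distribution over the 55 factors of log2(FPKM + 1) minus the DMSO mean in each library, for RNA (left) and footprints (right); boxes show quartiles and median, whiskers reach 1.5 times the quartile range, and diamonds mark the median of all genes tested. In RNA the boxes of AZD0095 replicates 2 and 3 lie lowest and the medians of all genes stay near 0, while the footprint boxes overlap one another.

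In the median of the factors, the libraries of replicate 1 and those of replicates 2 and 3 gave the same direction. Single factors could differ: RRP1 had 0.27 in replicate 1 and -0.20 in replicates 2 and 3, and GNL3L -0.39 and 0.06. Within replicate 1 the AZD0095 library was lower than the DMSO library for 42 of 55 factors, with a median log2 difference of -0.13 (all genes: 43.2% lower, median 0.03). In replicates 2 and 3 it was lower for 48 of 55, with a median of -0.19 (all genes: 50.1% lower, median 0.00). With replicates 2 and 3 alone, 2 libraries against 2, limma called 24 of the 55 lower, where 10.9% of all genes were called lower, and 0 higher (9.68%). With all 6 libraries and a term of its own for replicate 1 of both groups, 29 were called lower (11.6% of all genes) and 0 higher (12.9%). The 24 included the 7 factors that fell with all libraries. They comprised 10 of the 21 small subunit factors, 7 of the 22 large subunit factors, 5 of the 6 abundant proteins, 2 of the 3 box C/D proteins and 0 of the 3 H/ACA proteins.

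Of the 24 factors 17 were not called with all libraries, among them NOP58, at a log2 fold change of -0.56 (limma adjusted p = 0.00017), and BRIX1 at -0.59 (limma adjusted p = 7.8e-05). GNL2, a nucleolar GTPase, had -0.52 there (limma adjusted p = 0.00048), NOL11 -0.42 (limma adjusted p = 0.00062) and DDX21 -0.36 (limma adjusted p = 0.00072). NCL and NPM1 were called as well, at -0.20 and -0.25. That fit omits AZD0095 replicate 1, the library that lay between DMSO libraries, so its higher count is not separate support. LYAR and DDX10, both among the 24, had positive differences within replicate 1 (0.04 and 0.06), and all others of the 24 had negative ones. Without AZD0095 replicate 1 alone, 23 factors were called lower, as were 603 of all 6777 genes. Without DMSO replicate 2 or without AZD0095 replicate 2, limma called 0 factors, and 33 and 47 of all genes lower. At an unadjusted p under 0.05, 13 and 12 factors were lower there (all genes, either direction: 1156 and 1203). Without DMSO replicate 1, DMSO replicate 3 or AZD0095 replicate 3, limma called 3, 3 and 2 factors lower (all genes: 106, 90 and 90). The median of the 55 stayed between -0.22 and -0.11 in all these fits.

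The other genes of ribosome production were read from 5 lists with 118 further genes, of which 104 were listed. Their RNA log2 fold changes were negative in 78 of 104 (75%), with a median of -0.11, against 47.7% and 0.01 for all genes tested. Of the 104, 7 fell, where 3.01% of all genes were called lower, and 1 rose, where 5.03% were called higher. Of 12 listed genes of the RNA polymerase I machinery, the subunits POLR1G and POLR1C fell, by 0.43 and 0.36 on the log2 scale, and the small zinc-ribbon subunit POLR1H rose by 0.44, from a mean of 18.9 FPKM in DMSO to 26.0 in AZD0095, with SDs of 0.50 and 0.79 and an adjusted p of 0.0074 by limma. Of 34 other small subunit factors 3 fell: DHX37, the helicase that acts with UTP14A, by 0.46, UTP20 by 0.42 and NGDN by 0.30. Of 35 other large subunit factors PPAN alone fell, by 0.35, a share near that of all genes, and of 12 subunits or cofactors of the RNA exosome EXOSC6 fell, by 0.53. Of 11 genes of snoRNP assembly 0 passed the test.

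Footprints of the factors were not detectably different between treatments at this depth. Of 6777 genes limma called 0 in either direction (0%), and among the 55 factors 2 were lower at an unadjusted p under 0.05 (3.72% of all genes) and 0 higher (4.1%). The footprint log2 fold change was negative in 29 of 55, with a median of -0.01 against 0.04 for all genes. In 5 factors the AZD0095 libraries lay wholly below the DMSO libraries (5.77% of all genes): NCL, WDR74, NOP14, NOP56 and RRS1. In 0 they lay wholly above (7.19%). The median SE of the footprint log2 fold change of the factors was 0.38, against 0.08 for RNA, so a footprint change of the size of the RNA change was not detectable.

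NCL, the factor with the most footprints, had 8593, 16014 and 9406 FPKM of footprints in DMSO and 7791, 6209 and 5749 in AZD0095. All AZD0095 libraries lay below all DMSO libraries, and DMSO replicate 2 stood far above the other two. The footprint log2 fold change was -0.74 ± 0.21 (limma adjusted p = 0.58), with a range of -1.04 to -0.27 over the alternative fits. NPM1 differed less, at 7645, 8751 and 9161 FPKM in DMSO and 7928, 7406 and 7000 in AZD0095, with overlapping groups and a log2 fold change of -0.19 ± 0.13. These 2 genes held most of the footprint signal of the set. The 55 factors made up 1.75%, 2.49% and 2.00% of the summed footprint FPKM in DMSO and 1.77%, 1.61% and 1.68% in AZD0095. Without NCL and NPM1 the shares were 0.526% to 0.574% in DMSO and 0.531% to 0.607% in AZD0095, which overlap.

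WDR74, an assembly factor of the large subunit (chr11:62832905-62841809), had 159, 101 and 115 FPKM of footprints in DMSO and 38.2, 74.4 and 74.8 in AZD0095, a log2 fold change of -1.03 ± 0.41 (limma adjusted p = 0.63). NOP14 of the small subunit processome had 136, 195 and 148 in DMSO and 104, 101 and 89.7 in AZD0095, a log2 fold change of -0.69 ± 0.32 (adjusted p = 0.65 by limma). In both genes the groups were apart, and in neither did the difference pass the test. RRS1 had 50.1, 74.6 and 50.8 FPKM in DMSO and 25.2, 20.4 and 42.5 in AZD0095, a log2 fold change of -1.01 ± 0.49 with the groups apart that did not pass the test (limma adjusted p = 0.66). The footprint values of RRS1 rest on few reads, 7, 9 and 11 in DMSO and 4, 5 and 24 in AZD0095, where the implied depths also differed.

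The most positive footprint values by p were those of BOP1, NIP7 and UTP3, none past the test. BOP1 had 204, 279 and 148 FPKM in DMSO and 295, 355 and 250 in AZD0095, with a log2 fold change of 0.54 ± 0.30. NIP7, a large subunit factor, had 198, 217 and 255 in DMSO and 394, 216 and 319 in AZD0095, at 0.44 ± 0.29. UTP3, of the small subunit processome, had 33.0, 76.3 and 53.1 in DMSO and 43.4, 106 and 115 in AZD0095, at 0.66 ± 0.50. In all 3 the groups overlapped. UTP3 was counted on 6, 12 and 15 reads in DMSO and 9, 34 and 85 in AZD0095.

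Reads could be recovered for 15 of the 55 factors, and their median number per library was 12, 10 and 19 in DMSO and 14, 24 and 65 in AZD0095. NCL, NPM1 and FBL, the factors with the highest footprint FPKM in DMSO, were not among them, so these counts may be low for the set. WDR12 rested on as few as 4 reads in a library, and GTPBP4, a GTPase of the large subunit, on 25 to 163. Within a group the median SD of log2 footprint values over the 55 factors was 0.37 in DMSO and 0.31 in AZD0095, against 0.53 and 0.44 over all genes tested and 0.09 and 0.11 for the RNA of the same factors.

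The RNA and footprint changes of the factors showed little relation. Across the 55, Pearson's r between the 2 log2 fold changes was 0.03 and Spearman's rho 0.03, against 0.15 and 0.12 across all genes. The points share libraries within each assay, and genes are not independent replicates. The median SE of the factors' footprint change, 0.38, was large beside their RNA changes, so a relation could have been missed. Both values were negative in 25 factors, RNA was negative and footprints positive in 24, and the reverse held for 4. RIOK1, with the lowest RNA value, had footprints of 37.2, 62.1 and 87.7 FPKM in DMSO and 207, 92.0 and 43.7 in AZD0095, a log2 fold change of 0.67 ± 0.56. GRWD1 and NOP56 had negative values of both kinds, with footprint log2 fold changes of -0.29 ± 0.39 and -0.34 ± 0.24, and WDR43 and UTP14A lay near 0, at 0.06 ± 0.31 and -0.02 ± 0.53.

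**Figure D5:**
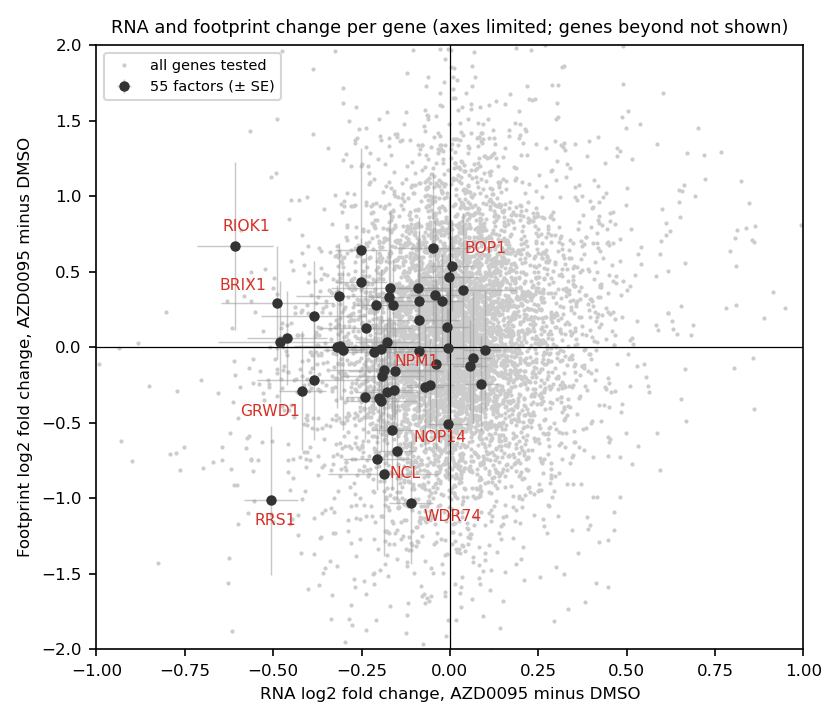
Footprint against RNA log2 fold change (AZD0095 minus DMSO) of the 55 factors (dark points, bars for the SE) over all genes tested (grey), with axes limited so that some grey points fall outside. The factors lie mostly left of 0 in RNA and on both sides of 0 in footprints, with RIOK1 high at 0.67 and WDR74 and RRS1 low near -1.03 and -1.01.

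Translational efficiency is the footprint level relative to the RNA level, and its change was the interaction term in a fit of all 12 libraries. Of 6777 genes limma called 0 (0%). Among the 55 factors the median log2 change was 0.18, against 0.03 for all genes, and 21 were negative (47.6% of all genes). This change is the footprint change less the RNA change, whose medians were -0.01 and -0.17. The value of 0.18 thus largely mirrors the RNA shift and is not separate evidence of a change in translation. At an unadjusted p under 0.05, NIP7 was higher, at 0.69 ± 0.30 (limma adjusted p = 0.56), as were 4.68% of all genes. WDR74 and NOP14 were lower, at -0.92 ± 0.38 and -0.54 ± 0.24 (limma adjusted p = 0.52 and 0.57), as were 3.85% of all genes. NCL had -0.53 ± 0.28, BRIX1 0.78 ± 0.37 and RIOK1 1.28 ± 0.64, each with an unadjusted p above the threshold. Both assays shared 1 spread per gene here, and the factors' median SE, 0.36, lay below that of footprints alone, 0.38. With vooma weights by assay, 1 factor was higher and 1 lower at an unadjusted p under 0.05. With the log2 ratio per replicate number 0 were (all genes, either direction: 473 and 427). By role the medians were 0.24 for the large subunit, 0.19 for the small subunit, 0.08 for the abundant proteins, -0.13 for the box C/D proteins and -0.18 for the H/ACA proteins.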

How the data were processed

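Per the labels' protocols, RNA was extracted directly for RNA-seq, and footprints came from lysate freed of nuclei and mitochondria, after RNase I digestion and removal of rRNA. The titles of the RNA libraries say total RNA while their molecule is polyadenylated RNA. The authors deposited FPKM values per gene for each library. The tools named per the submitters' processing notes are fastp, Bowtie2 and STAR, with build hg38; for their roles and versions and the read counter, nothing was stated. There were 6785 genes in each table, all above 1 FPKM; 8 repeated entries were dropped, which left 6777.

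Values were tested as log2(FPKM + 1), a pseudocount of 1, so fold changes of low genes are understated. A mean FPKM of at least 1 was required, which removed no gene. RNA and footprints were compared with limma 3.58.1 (trend, two-sided) in R 4.3.3, and translational efficiency as the interaction over 12 libraries with 1 spread per gene. Benjamini-Hochberg adjustment covered 6777 genes, and calls were made at an adjusted p under 0.05. The code was tested on simulated data. Footprint reads were recovered from the steps in FPKM, to within 0.02 of a read, for 1206 genes (17.8%). No read intervals apply to FPKM of RNA, whose depth is unknown.

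The members and lists were chosen with earlier results of these data known. Members given in full were those called, the 3 with the smallest p in each direction of each comparison, and the 3 with the highest and lowest RNA level and DMSO footprint to RNA ratio; of other genes, those called, up to 3 per list and direction. Others were named after their values were seen. Positions and promoter windows came from RefSeq tables of GRCh38.p14, matched by symbol. No label states whether replicates came from separate cultures; p-values therefore reflect only the spread of these libraries, possibly technical. Alternatives were other pseudocounts, filters, scalings, replicate terms, depth as a covariate, vooma weights and leaving out each library.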

Additional observations from a re-analysis of the deposited data

How the results depend on the processing

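The number of factors called lower in RNA was 7 with every other pseudocount, filter and scaling tried, and changed with the replicate terms and libraries. With replicate 1 of both groups given its own term it was 29, with the replicate block it was also 29, with replicates 2 and 3 alone 24, and leaving out 1 library at a time gave 0 to 23. The 7 factors were among the calls in each of the fits with 23 or more. Of the 15 alternatives, NOP56, WDR43, UTP14A and BYSL lost the call in 5 each, RIOK1 in 3, and GRWD1 and RRS1 in 2 each. All these losses came with 1 library left out. Over all genes, leaving out 1 library at a time gave 33 to 603 called lower. The replicate block raised the calls over all genes from 341 higher and 204 lower to 856 and 766. Whether the numbers pair the samples was not settled by the check made. Same-numbered RNA libraries deviated together at r = 0.622, 0.0857 and 0.489. In RNA, replicates 1 and 3 were each closest to the library of their own number. However, DMSO replicate 2 was closest to AZD0095 replicate 3 (0.234), and AZD0095 replicate 2 to DMSO replicate 3 (0.303). Same-numbered footprint libraries had r = 0.00878, -0.0223 and 0.0913. Over all 15 alternatives for RNA 43 to 50 factors were negative and 0 were called higher. For footprints (16 alternatives) and translational efficiency (23), 0 factors were called; 25 to 33 and 15 to 23 were negative, and the median ranged from -0.09 to 0.06 and from 0.06 to 0.26. The sign of the footprint median is therefore not settled. Over all genes, leaving out DMSO footprint replicate 1 or 2 gave 4 and 3 calls in translational efficiency, in place of 0. The cause was not tested. The shallow footprint libraries limit what could be seen, and genes below 1 FPKM in any library were not analysed here.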
